A study of Mus musculus with 4 samples.

Results

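The genes described here are the mouse zinc finger genes named Zfp with a number on chromosomes 2, 4, 7 and 13, as measured in heart RNA from Carm1 mutant and wild-type mice. Members were the rows whose GENCODE M21 symbol is Zfp followed by digits, on those chromosomes, with at least 20 counts summed over the 4 libraries, and Zfp36 was left out. Members were thus selected on name, position and summed count; the rule has no threshold on the difference between genotypes, but it was written with earlier results of these data known. It found 129 of the 54752 genes in the count table. GENCODE annotates 179 such genes on these chromosomes, so 50 fell below the threshold, 11 of them with no count in any library.

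The series holds 2 libraries of Carm1 mutant heart and 2 libraries of wild-type heart, all from cardiac tissue at postnatal day 14. Carm1 is an arginine methyltransferase of histones and coactivators, and the study concerns how it acts in cardiac maturation. The labels name no Carm1 allele, Cre driver, strain or sex. They also leave unsaid if each library is from its own mouse, so a p-value here reflects library-to-library spread, which may be technical. Library totals were 22217442 and 11677604 counts in the Carm1 mutant, against 21719161 and 20778420 counts in wild type. Carm1 itself had 35.8 and 31.8 CPM in the mutant libraries, against 45.9 and 52.3 CPM in the wild-type libraries (log2 fold change −0.54, SE 0.19, edgeR FDR 0.114). CPM stands for TMM-scaled counts relative to library size throughout.

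Most Zfp genes of this kind encode proteins with tandem C2H2 fingers, short loops in which 2 cysteines and 2 histidines hold a zinc ion and which read DNA sequence. Many also carry a KRAB domain, through which the protein recruits the corepressor Trim28 and the histone H3 lysine 9 methyltransferase Setdb1, best known for silencing retrotransposons. KRAB zinc finger genes arose largely by tandem duplication, lie in clusters of similar copies, and differ in gene content between inbred mouse strains.

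By chromosome, 12 of 25 annotated genes on chromosome 2 were members, 18 of 30 on chromosome 4, 78 of 91 on chromosome 7 and 21 of 33 on chromosome 13. A cluster was defined as a run of at least 3 annotated Zfp genes, each starting within 500 kb of the one before. There were 16 clusters, which held 94 members, while 35 members lay outside them. Of the members, 127 were annotated as protein coding and 2, Zfp264 and Zfp939, as pseudogenes. The encoded proteins held a median of 11 C2H2 fingers by pattern search, 118 of the 127 had at least 3, and the most was 33, in Zfp462 and Zfp619. Members in clusters had a median of 12 fingers and members outside them a median of 8.5. Summed counts ran between 21 and 13587 with a median of 244. Levels per length were low, with a median of 0.688 CPM per kb of exon (quartiles 0.265 and 1.88) inside clusters and 1.28 CPM per kb (quartiles 0.333 and 3.97) outside them. On this scale the highest members were Zfp768 with 18.9 CPM per kb, Zfp106 with 17.4, Zfp580 with 14.2 and Zfp362 with 12.8, as means over the 4 libraries. Because copies resemble each other, the share of each gene's 100-base transcript windows found in another gene's transcripts was counted. Any other gene on either strand was taken, so the share does not measure similar copies alone. The main partner of Zfp593, for example, was E130218I03Rik, and that of Zfp106 was Gm26899, neither of them a Zfp gene. The share was 0% for 76 members, above 10% for 26 (21 of them in clusters) and above 50% for Zfp968, Zfp593, Zfp993 and Zfp991. The values of these 4 are uncertain because no source used here states how reads with several matches were counted.

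The members closest to the threshold were Zfp296 with 21 counts in all, Zfp991 with 22, Zfp759 with 23, Zfp953 with 25, and Zfp184, Zfp382 and Zfp593 with 28 each. Just outside it were Zfp457 and Zfp551 with 19 counts, Zfp456 and Zfp458 with 18, and Zfp937 and Zfp473 with 16.

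The one comparison of the design, Carm1 mutant against wild type, was fitted over all genes with edgeR's quasi-likelihood test. Of 120 members that passed the filter on low counts, 5 rose and 3 fell in the Carm1 mutant at an FDR of 0.05, and 112 did not pass. The 9 members left out by that filter were Zfp593, Zfp991, Zfp296, Zfp109, Zfp382, Zfp712, Zfp759, Zfp595 and Zfp953. Over all 15283 genes tested, 7.37% were called (2.79% higher, 4.58% lower), against 6.67% of the tested members, so the family as a whole was called about as often as any gene. Scaled by library totals without TMM, 1189 genes were called higher and 206 lower in place of 426 and 700, and 6 members were higher and 1 lower, while the median over all genes moved by 0.39 on the log2 scale. The median log2 fold change of the tested members was 0.12, beside 0.02 for all genes, and 74 of 120 were positive. Groups did not overlap in 36 members that were higher in the mutant and in 27 that were lower, 52.5% of those tested, against 59.0% of all genes (30.3% higher, 28.7% lower).

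**Figure D1:**
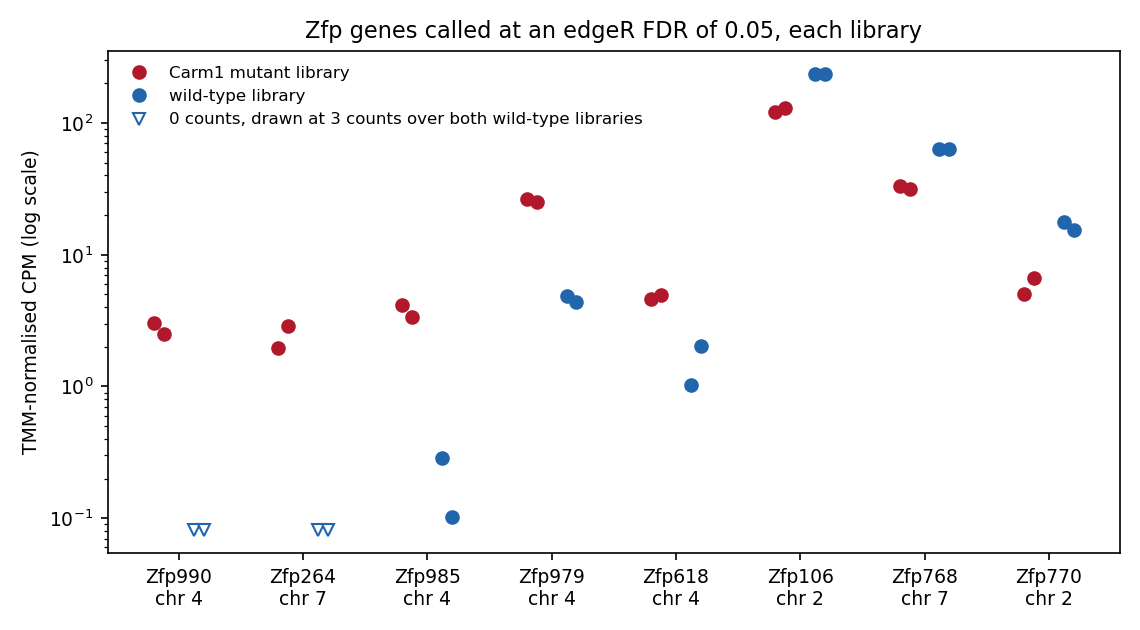
TMM-normalised CPM on a log axis for the 8 Zfp genes called between genotypes, 1 point per library, with Carm1 mutant points left of wild-type points. Open triangles mark libraries with 0 counts. Zfp990 and Zfp264 are at 0 in both wild-type libraries, and the groups overlap in none of the 8 genes. These genes were selected for a difference between the groups, which also do not overlap in 59.0% of all genes tested.

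The called members were unevenly placed. Chromosome 4 held 4 of the 5 that rose, and 3 of these, Zfp990, Zfp985 and Zfp979, lay in 1 cluster. The fifth to rise was Zfp264 on chromosome 7. Those that fell were Zfp770 and Zfp106 on chromosome 2, outside clusters, and Zfp768 on chromosome 7. On chromosome 4, 4 of 16 tested members rose and none fell (median log2 fold change 0.50), where 8.02% of the other tested genes of that chromosome were called. On chromosome 2, 2 of 12 fell (median 0.11, other genes 9.41%). On chromosome 7, 1 of 75 rose and 1 fell (median 0.02, other genes 6.94%). On chromosome 13, no member of 17 was called (median 0.13, other genes 9.33%). The chromosomes were chosen with earlier results of these data known, and Zfp990, Zfp985 and Zfp264 passed the filters only through their mutant counts. These counts by chromosome and cluster are therefore descriptions.

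**Figure D2:**
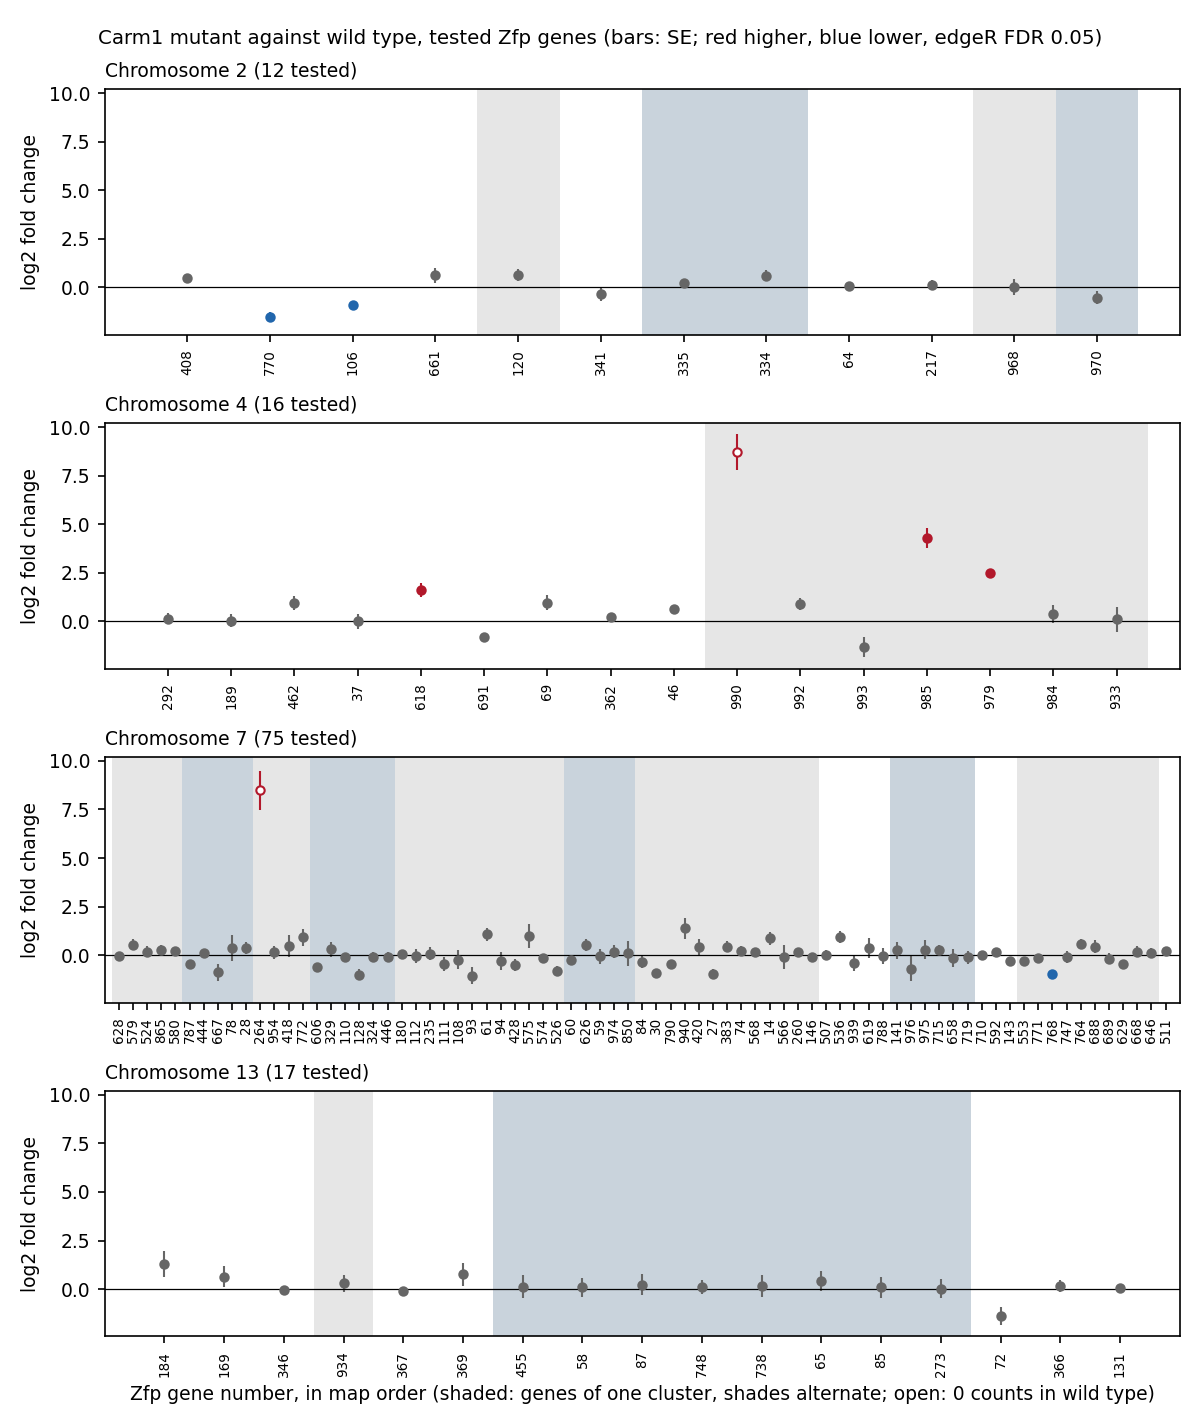
Log2 fold change (Carm1 mutant over wild type) of each tested Zfp gene in map order on chromosomes 2, 4, 7 and 13, with standard errors; shaded runs are clusters. The 3 red points in the shaded run of chromosome 4 are Zfp990, Zfp985 and Zfp979. Open points had 0 counts in wild type, where the fitted value depends on the prior count.

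The chromosome 4 cluster spans 2338 kb (GRCm38, chr4:145510759-147848366), between Zfp990 and Zfp933. It holds 18 annotated Zfp genes, of which 8 were members and 7 were tested. Summed over its members, the cluster gave 44.0 and 40.2 CPM in the Carm1 mutant libraries, against 11.4 and 13.2 CPM in the wild-type libraries. Most of the mutant sum came from Zfp979, with 26.7 and 25.0 CPM in the mutant, against 4.86 and 4.39 CPM in wild type. The tested members of the cluster had a median log2 fold change of 0.89.

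Zfp979 (ENSMUSG00000066000, chr4:147611937-147642513, minus strand) was the most abundant of them. RefSeq lists Ssm1b as another name of this gene, which is known in mouse as a strain-specific modifier of transgene methylation. It had 669 and 340 counts in the mutant libraries, against 85 and 86 in wild type. That is 25.9 ± 1.16 CPM in the mutant and 4.63 ± 0.332 CPM in wild type (SD, n = 2 each), a log2 fold change of 2.48 (SE 0.21, edgeR FDR 0.00246). Of its windows, 17% were shared with other genes, chiefly with Zfp978, which had 4 and 1 counts in the mutant and 1 and 6 in wild type.

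Zfp985 (ENSMUSG00000065999, chr4:147553277-147585198, plus strand), its neighbour, encodes a protein with 10 fingers. It had 104 and 46 counts in the mutant libraries, against 5 and 2 in wild type, or 3.77 ± 0.538 CPM in the mutant and 0.194 ± 0.130 CPM in wild type (SD, n = 2 each). Its log2 fold change was 4.27 (SE 0.51, edgeR FDR 0.00847), and 1.92% of its windows were shared. The wild-type counts of Zfp985 alone were too few for the sum threshold and for the filter on low counts. It was thus a tested member only through its mutant counts.

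Zfp990 (ENSMUSG00000078503, chr4:145510759-145539188, plus strand), at the other end of the cluster, encodes a protein with 13 fingers. It had 76 and 34 counts in the mutant libraries, against 0 and 0 in wild type. Its mean of 2.77 ± 0.373 CPM in the mutant (SD, n = 2) was at least 34.2-fold higher than 3 counts over both wild-type libraries (0.0809 CPM; edgeR FDR 0.00815). That floor covers counting error only. Among all genes tested, wild type lacked any count for 10 (0.0654%), and 2 of these, Zfp990 and Zfp264, were members. Both passed the sum threshold and the filter on low counts only through their mutant counts, so this tally is a description. The mutant lacked any count for 2 genes (0.0131%), none of them members. Of the windows of Zfp990, 1.63% were shared.

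The other genes of the cluster did not move as one. Zfp992 had 178 and 61 counts in the mutant, against 47 and 71 in wild type (log2 fold change 0.89, edgeR FDR 0.124). Zfp993 had 11 and 13 counts in the mutant, against 25 and 36 in wild type (log2 fold change −1.31, edgeR FDR 0.144), but 71.9% of its windows were shared. Zfp984 had 43 and 45 counts in the mutant, against 24 and 46 in wild type, and Zfp933 had 17 and 4 in the mutant, against 7 and 11. Zfp991, not tested, had 6 and 3 counts in the mutant, against 6 and 7 in wild type. Below the threshold, Zfp982, beside Zfp985, had the opposite counts, with no count in either mutant library and 6 and 5 in wild type. Zfp981 had 5 and 5 counts in the mutant, against 1 and 3. Zfp988 had 1 and 3 counts in the mutant and Zfp534 had 1 and 1, with none in wild type. Between these genes, 7 other genes were tested, 4 of them processed pseudogenes, and none was called (median log2 fold change 1.03).

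**Figure D3:**
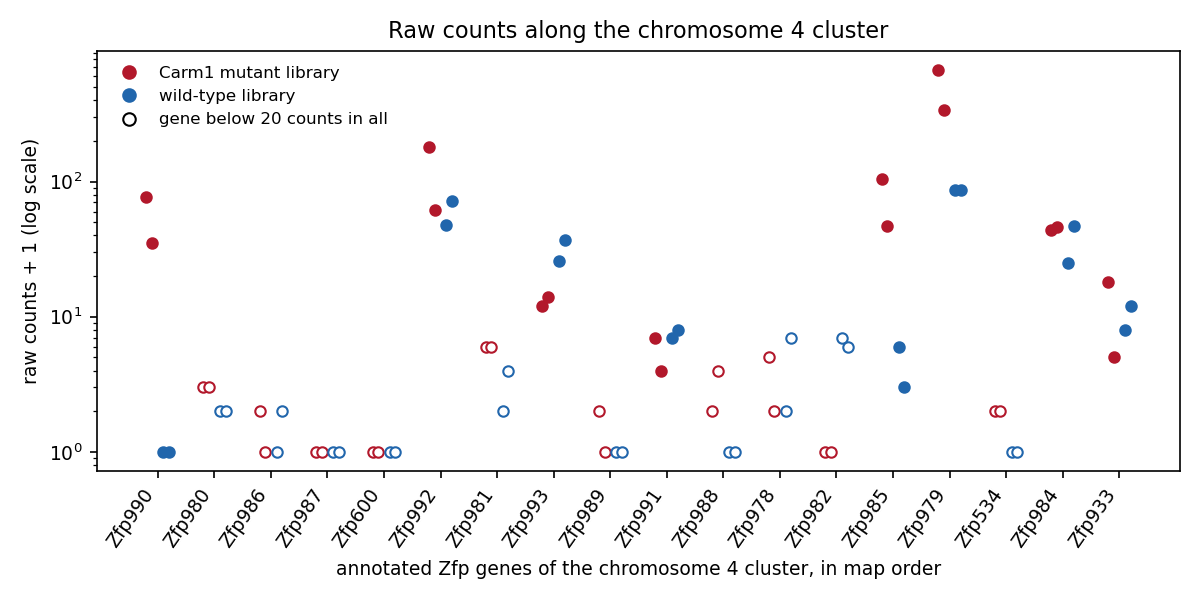
Raw counts plus 1 on a log axis for the 18 annotated Zfp genes of the chromosome 4 cluster in map order, 1 point per library and not scaled for depth. Filled points are members and open points are genes below 20 counts in all. Zfp990, Zfp985 and Zfp979 stand apart between genotypes, and Zfp982 has counts in wild type only.

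The promoters of these genes are shown because neighbouring copies with different counts share sequence there. RefSeq promoters of 300 bases (GRCm38.p6, 250 bases before to 50 after the start) were found for 111 of the 129 members. Those of Zfp979 (chr4:147642459-147642758, minus strand), Zfp985 (chr4:147553027-147553326, plus strand) and Zfp982 (chr4:147492167-147492466, plus strand) follow, 5′ to 3′. Capitals mark 1 of the 3 longest runs, of 21 bases, that all of them share.
Zfp979: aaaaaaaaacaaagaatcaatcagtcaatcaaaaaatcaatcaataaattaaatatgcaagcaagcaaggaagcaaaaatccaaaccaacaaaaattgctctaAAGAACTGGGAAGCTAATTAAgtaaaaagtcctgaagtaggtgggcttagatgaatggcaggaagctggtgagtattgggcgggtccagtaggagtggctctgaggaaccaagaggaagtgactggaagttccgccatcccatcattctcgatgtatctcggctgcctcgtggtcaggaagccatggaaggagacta
Zfp985: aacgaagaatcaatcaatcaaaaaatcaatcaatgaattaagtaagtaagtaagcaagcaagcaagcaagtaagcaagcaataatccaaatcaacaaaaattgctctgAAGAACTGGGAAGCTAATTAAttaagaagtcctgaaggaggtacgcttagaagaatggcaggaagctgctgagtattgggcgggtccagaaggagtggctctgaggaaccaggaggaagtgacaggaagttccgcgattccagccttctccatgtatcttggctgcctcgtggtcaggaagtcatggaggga
Zfp982: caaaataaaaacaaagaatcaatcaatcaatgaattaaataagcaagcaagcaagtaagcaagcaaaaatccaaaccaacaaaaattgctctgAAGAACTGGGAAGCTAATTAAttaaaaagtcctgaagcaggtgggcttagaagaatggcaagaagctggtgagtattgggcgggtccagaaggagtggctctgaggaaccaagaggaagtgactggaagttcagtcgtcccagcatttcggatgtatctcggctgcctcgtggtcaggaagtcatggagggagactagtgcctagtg
In global alignments of these promoters, 81.3% of positions were identical between Zfp979 and Zfp985, 84.6% between Zfp982 and Zfp979, and 81.0% between Zfp982 and Zfp985. Other listed promoters of Zfp982 were far less alike, with 43.2% and 41.5% identity to that of Zfp979. To that of Zfp985 they had 43.3% and 45.3%, so the printed Zfp982 promoter is the closest of those listed. The run starts 147 bases before the start of Zfp979, 142 before that of Zfp985 and 157 before that of Zfp982. On either strand, the run AAGAACTGGGAAGCTAATTAA was found in 9 of the 32851 promoters (0.0274%), those of 9 genes of this cluster span: Zfp980, Zfp987, Zfp600, Rex2, Zfp988, Zfp982, Zfp985, Zfp979 and Zfp534. Zfp990 had no promoter entry, so the run could not be searched for there. Among the genes with the run, Zfp979 and Zfp985 rose, and Zfp987 and Zfp600 had no count in any library. Rex2 had 4 and 0 counts in the mutant and none in wild type, and Zfp980 had 2 and 2 in the mutant and 1 and 1 in wild type. Of the transcript windows of these genes, 77.9% were shared with other genes in Zfp987, 68.5% in Zfp600, 46.6% in Zfp988, 46.1% in Zfp980 and 40.8% in Zfp534, so their low or absent counts are uncertain. Of the promoters of Zfp600, 1 had 94.4% identity to that of Zfp979, more than any other compared, and another had 47.6%. The match is a description of these letters and not of a factor's binding.

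The remaining member to rise on chromosome 4 lay outside clusters. Zfp618 (ENSMUSG00000028358, chr4:62965573-63139708, plus strand), a zinc finger gene with 4 fingers, had 4.59 and 4.93 CPM in the mutant libraries, against 1.03 and 2.04 CPM in wild type. Its log2 fold change was 1.61 (SE 0.37, edgeR FDR 0.0422), the FDR nearest to the threshold among the 8 called members, and the call was lost without mutant replicate 1 (edgeR FDR 0.0707) and without mutant replicate 2 (edgeR FDR 0.0922). The most abundant members of the chromosome were Zfp46, with 60.0 and 52.2 CPM in the mutant against 30.8 and 42.6 CPM in wild type (log2 fold change 0.61, edgeR FDR 0.119), and Zfp362, with 44.5 and 39.5 CPM against 31.1 and 41.3 CPM (edgeR FDR 0.541). Zfp691 had 16.2 and 14.9 CPM in the mutant, against 29.9 and 24.4 CPM in wild type, and just missed the threshold (log2 fold change −0.80, edgeR FDR 0.0514). Zfp69, a candidate gene of a diabetes locus in mouse, had 2.31 and 2.21 CPM in the mutant, against 1.09 and 1.23 CPM in wild type (edgeR FDR 0.138).

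On chromosome 7, the member that rose was an annotated pseudogene. Zfp264 (ENSMUSG00000109176, chr7:6977246-6991087, plus strand) had 49 and 39 counts in the mutant libraries and none in either wild-type library. Its mean of 2.41 ± 0.649 CPM in the mutant (SD, n = 2) was at least 29.8-fold higher than 3 counts over both wild-type libraries (edgeR FDR 0.0103). Like Zfp990 and Zfp985, it passed the sum threshold and the filter on low counts only through its mutant counts. Of its windows, 4.11% were shared, chiefly with Zim3, an antisense gene that overlaps its start and had 0 counts. The other members of its cluster, Zfp954, Zfp418 and Zfp772, were not called. Zfp954 had 106 and 48 counts in the mutant, against 77 and 53 in wild type, and Zfp772 had 38 and 23, against 19 and 12. Zfp418, known for a role in cardiac hypertrophy, had 17 and 8 counts in the mutant, against 10 and 7 in wild type. Next to the cluster, 2 untested gene models had more counts in wild type. Gm45844 had 2 and 1 counts in the mutant, against 8 and 9 in wild type, and the overlapping Gm18190 had 1 and 0, against 8 and 6.

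Zfp768 (ENSMUSG00000047371, chr7:127342795-127345589, minus strand), with 10 fingers, fell in the mutant. It had 33.1 and 31.3 CPM in the mutant libraries, against 63.7 and 63.0 CPM in wild type, with no overlap and no shared window. The log2 fold change was −0.98 (SE 0.18, edgeR FDR 0.0244). The call was lost when libraries were scaled by their totals (log2 fold change −0.58, edgeR FDR 0.0890), without mutant replicate 1 (edgeR FDR 0.236) and without mutant replicate 2 (edgeR FDR 0.285). Of its cluster's 10 tested members, Zfp768 alone was called, and the median log2 fold change there was −0.13.

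The other 7 clusters of chromosome 7, with no called member, had median log2 fold changes between −0.20 and 0.22. Zfp30 had 5.18 and 4.49 CPM in the mutant, against 9.27 and 9.19 CPM in wild type (log2 fold change −0.92, edgeR FDR 0.0507), and Zfp27 of the same cluster had 3.67 and 3.83 CPM, against 8.12 and 6.33 CPM (edgeR FDR 0.0654). In that cluster, Zfp14 lay on the other side, with 4.19 and 4.12 CPM in the mutant against 1.77 and 2.76 CPM in wild type (edgeR FDR 0.131). Zfp260, which acts with GATA factors in cardiac transcription, and Zfp568, a repressor of a placental Igf2 transcript in mouse, also lie there. Zfp260 had 22.7 and 19.5 CPM in the mutant, against 17.7 and 19.4 CPM in wild type (log2 fold change 0.19, SE 0.19, edgeR FDR 0.562). Zfp568 had 22.8 and 20.2 CPM, against 18.2 and 19.6 CPM (log2 fold change 0.19, SE 0.19, edgeR FDR 0.558). These examples were chosen after their values were seen. The most abundant member of chromosome 7, Zfp592, had 64.2 and 51.0 CPM in the mutant, against 48.6 and 56.1 CPM in wild type (edgeR FDR 0.698).

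Both members that fell on chromosome 2 lay outside clusters. Zfp770 (ENSMUSG00000040321, chr2:114193461-114201469, minus strand), with 10 fingers, had 5.03 and 6.63 CPM in the mutant libraries, against 17.6 and 15.4 CPM in wild type. Its log2 fold change was −1.52 (SE 0.23, edgeR FDR 0.0155), the largest fitted fall among the 120 tested members, and none of its windows was shared. Without mutant replicate 1 the call was lost (log2 fold change −1.32, edgeR FDR 0.0691).

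Zfp106 (ENSMUSG00000027288, chr2:120506820-120563843, minus strand), an RNA-binding protein needed for motor neurons and muscle in mouse, was the most abundant member of all by CPM. It had 121 and 131 CPM in the mutant libraries, against 237 and 237 CPM in wild type, a log2 fold change of −0.91 (SE 0.20, edgeR FDR 0.0345). The pattern search matched no C2H2 finger in its protein. Of its windows, 24.2% were shared with other genes, chiefly with Gm26899, a long non-coding RNA on the other strand with 7 counts in all. The call was lost with library totals (log2 fold change −0.52, edgeR FDR 0.111), with a block for the replicate number (edgeR FDR 0.0768), without mutant replicate 1 (edgeR FDR 0.469) and without mutant replicate 2 (edgeR FDR 0.348). Zfp335, next in abundance on chromosome 2, had 26.2 and 27.1 CPM in the mutant, against 19.6 and 25.4 CPM in wild type (edgeR FDR 0.470).

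On chromosome 13, the largest cluster by number spans 1157 kb (chr13:66669928-67827002). It holds 20 annotated Zfp genes, 12 members and 8 tested genes, all at low level. Its members summed to 9.69 and 8.10 CPM in the mutant libraries, against 8.18 and 9.86 CPM in wild type. All 8 tested members had log2 fold changes above 0, between 0.03 and 0.39, and none was called. Their median was 0.12. It was −0.04 over the 11 members that passed the filter without wild-type replicate 1, and −0.24 over the 10 that passed it without mutant replicate 1, so these medians are not over one set of genes. The 2 most abundant members of the chromosome by CPM lay outside clusters. Zfp366 had 39.8 and 28.4 CPM in the mutant, against 21.7 and 40.0 CPM in wild type (edgeR FDR 0.791), and Zfp131 had 22.0 and 18.7 CPM, against 20.1 and 19.1 CPM (edgeR FDR 0.863).

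Inside and outside clusters the shares of called members were close to the background of 7.37%. Of 87 tested members in clusters, 4 rose and 1 fell (median log2 fold change 0.12), and of 33 outside, 1 rose and 2 fell (median 0.13). Of the 16 clusters, 3 held a called member. The median log2 fold change was above 0 in 12 clusters and below 0 in 4, beside 0.02 for all genes. Some of these medians rest on 1 tested member, such as 0.04 for Zfp968, with 98.6% of windows shared. Without the chromosome 4 cluster, 113 tested members remained, of which 2 rose and 3 fell (median 0.09). Among the 97 tested members with at most 10% of windows shared, 4 rose and 2 fell, and among the 23 with more, 1 rose and 1 fell.

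**Figure D4:**
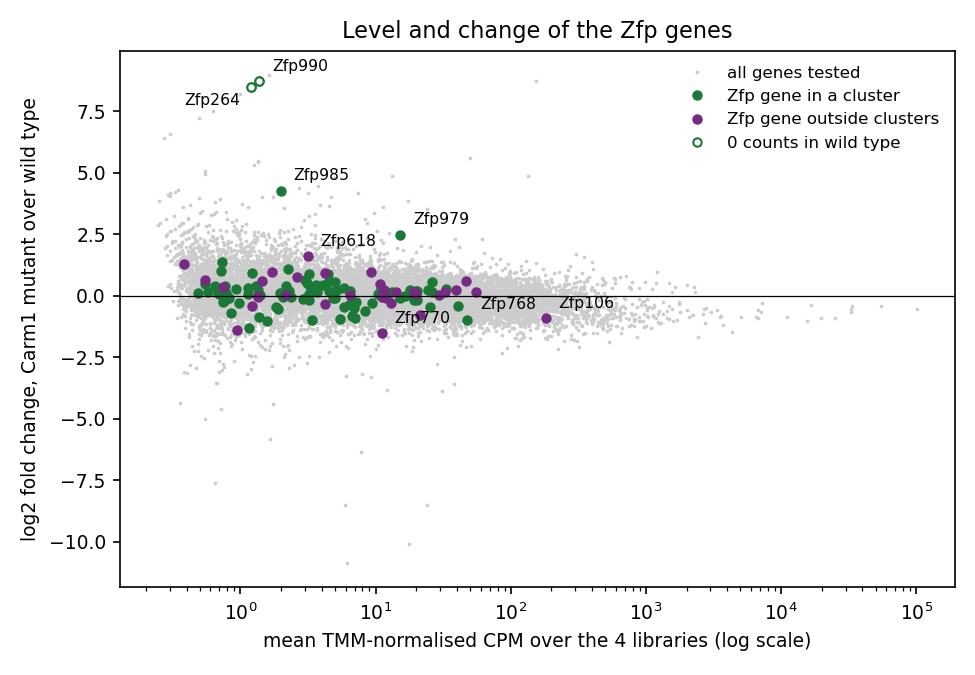
Log2 fold change (Carm1 mutant over wild type) against mean TMM-normalised CPM on a log axis for all 15283 genes tested (grey) and the 120 tested Zfp genes, coloured by whether they lie in a cluster. Most Zfp genes sit near 0 at all levels, and Zfp990, Zfp264, Zfp985 and Zfp979 stand above the others.

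Zfp genes of the same naming on other chromosomes were the most similar set outside the rule. Of 169 such genes with at least 20 counts, 165 were tested, none was called higher and 1, Zfp672 on chromosome 11, was called lower, with a median log2 fold change of 0.06. Zfp672 had 26.9 and 22.2 CPM in the mutant, against 46.7 and 47.6 CPM in wild type (log2 fold change −0.94, edgeR FDR 0.0300). Of 58 tested genes of the related Zkscan, Zscan and Zbtb families, edgeR called 0 (median 0.15). Their most abundant genes were Zbtb20, with 211 and 191 CPM in the mutant against 115 and 233 CPM in wild type, and Zbtb7a, with 58.1 and 50.9 CPM against 46.3 and 69.5 CPM.

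The silencing machinery used by KRAB zinc finger proteins was also measured. Of 30 tested genes of that list, 1 rose and none fell (3.33%, beside 7.37% of all genes tested), with a median log2 fold change of 0.19. The gene that rose was Uhrf1, a cofactor of maintenance DNA methylation, with 207 and 159 counts in the mutant libraries against 34 and 65 in wild type (log2 fold change 1.90, SE 0.33, edgeR FDR 0.0206). Trim28 had 105 and 109 CPM in the mutant, against 81.8 and 78.4 CPM in wild type (log2 fold change 0.41, SE 0.18, edgeR FDR 0.192). Setdb1 had 25.6 and 25.0 CPM in the mutant, against 17.9 and 25.8 CPM in wild type (log2 fold change 0.21, edgeR FDR 0.582).

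Several other measurements differed between libraries, and some of them moved with the genotype labels. Markers of cycling cells summed to 94.9 and 97.9 CPM in the mutant libraries, against 19.2 and 29.6 CPM in wild type, and 6 of 6 rose. Cardiomyocyte markers summed to 38908 and 41908 CPM in the mutant, against 76666 and 66465 CPM, with 0 of 7 called. Fibroblast markers summed to 4022 and 4378 CPM, against 2266 and 2560 CPM, with 1 of 7 higher. Endothelial markers summed to 1569 and 1375 CPM in the mutant, against 886 and 1210 CPM in wild type, with 0 of 7 called. Schwann cell and neuron markers summed to 44.2 and 51.0 CPM, against 31.1 and 22.6 CPM, and 1 of 5, Tubb3, rose (log2 fold change 2.55, edgeR FDR 0.0277). Macrophage markers summed to 177 and 193 CPM, against 177 and 154 CPM, smooth muscle markers to 1917 and 2015 CPM, against 1698 and 1891 CPM, erythroid markers to 540 and 864 CPM, against 711 and 508 CPM, and lymphocyte markers to 2.59 and 4.42 CPM, against 1.20 and 2.25 CPM, with none called in these lists. No defining marker of these lists was at 0. Libraries also differed in how counts followed transcript length. Over genes, Spearman's rho between length and a library's deviation from the mean of the 4 was 0.21 and 0.00084 in the mutant libraries, against −0.327 and 0.274 in wild-type replicates 1 and 2. With that trend removed, 2661 genes were called in place of 1126, and 8 members were lower in place of 3, with 5 higher as before. In bulk cardiac tissue, fewer cells of a type and less RNA per cell cannot be told apart. Sex also followed the labels: Xist had 8116 and 3921 counts in the mutant libraries, against 12 and 15 in wild type. The Y-linked Ddx3y had 1 and 0 counts in the mutant, against 575 and 741 in wild type, Eif2s3y had 5 and 0 against 847 and 939, Kdm5d had 1 and 0 against 177 and 266, and Uty had 0 and 0 against 170 and 290. Genotype and sex cannot be told apart in these libraries, for the Zfp genes included. The part of cell composition in the Zfp values was not tested.

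Strain is not in the labels, and these clusters are known to differ between inbred strains. Of 8 genes with textbook strain variants, 3 were tested and edgeR called 0. Nnt, which carries a deletion in C57BL/6J, had 22 and 8 counts in the mutant, against 5 and 10 in wild type (log2 fold change 0.89, edgeR FDR 0.359). Glo1 had 46.1 and 72.4 CPM in the mutant, against 66.4 and 41.9 CPM in wild type (edgeR FDR 0.812). Mx1 had 2 and 3 counts in the mutant and none in wild type, Hc had 1 and 0 against none, and H2-Ea-ps had 0 and 1 against none. Gabra2 had no count in any library. The part of strain in the Zfp values was not tested.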

How the data were processed

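RNA from cardiac tissue was sequenced in 2 Carm1 mutant and 2 wild-type libraries, grouped by their genotype labels. The values are raw counts per gene as the authors deposited them. FastQC, HISAT2 and the mm10 build were used, per the submitters' processing notes; for the counting program, its annotation, strand and reads with several matches, the choice is not given in the sources used. GENCODE M21 (GRCm38) named 54723 of 54752 identifiers and gave coordinates, transcripts and coding sequences.

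TMM scaling was applied to the genes passing filterByExpr (15283), which edgeR 4.0.16 in R 4.3.3 then tested (glmQLFit, glmQLFTest, genotype only, 2 residual degrees of freedom), with Benjamini-Hochberg adjustment over all genes and a threshold of 0.05. A standard error is the log2 fold change divided by the square root of F. Floors are 3 counts. Shared windows are 100-base pieces of a gene's transcripts found in another gene's transcripts on either strand. The steps were tested on simulated data.

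The members and lists were chosen with earlier results of these data known. The named genes are every called member, the 2 most abundant members of each chromosome, the 5 nearest the threshold of 20 counts on each side (more at ties), members with 0 counts in a group, Carm1, Trim28, Setdb1, called genes of each list or its 2 most abundant, and the strain and sex lists; some single genes are not reported here. Alternatives were other size factors, filters, DESeq2 1.42.0, removal of a length trend by loess, leaving out each library, a replicate block, other sum thresholds and other cluster distances. Where a library is left out, its group holds 1 sample, and its spread is taken from the other group.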

Additional observations from a re-analysis of the deposited data

How the results depend on the processing

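All 8 called members kept their direction under every fit run. All 8 were also called with DESeq2 size factors, no filter, a 1 CPM filter, the length trend removed, the crossed block, the DESeq2 Wald test and without either wild-type library. Zfp979, Zfp985, Zfp990 and Zfp264 were called in every fit. Without mutant replicate 1, only these 4 of the 8 stayed called, and without mutant replicate 2, these and Zfp770. The number of members called depended on the fit. With library totals 1 member was lower and the members' median was 0.50 (0.41 over all genes). With no filter 8 members were higher and 9 lower, of 2630 genes called; 8 were lower of 2661 with the length trend removed; and DESeq2's Wald test called 1705 genes. Leaving out 1 library gave 377 to 5679 genes called, 4 to 18 members higher, 0 to 11 lower and a members' median between −0.0043 and 0.16, negative without wild-type replicate 1 (−0.0043). The cause was not tested.

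Deviations of same-numbered libraries correlated at −0.33 over genes. This value rests on a single replicate difference per genotype, and libraries also differed in their length trends. It therefore cannot decide if replicate numbers pair the samples. With the replicate block, 580 genes were higher and 642 lower, with 6 members higher and 2 lower. A block with crossed numbers, chosen after the data were seen, called 4176 genes, with 12 members higher, 10 lower and 5 in the chromosome 4 cluster.

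Calls in the other lists moved too. For Zfp genes of other chromosomes they were 3 with library totals, 9 with no filter, 5 with the length trend removed, 3 with the replicate block, 19 with the crossed block, 3 with DESeq2 and 0 to 26 without a library. For the corepressors they were 4, 2, 2, 6 and 2 with library totals, no filter, the length trend removed, the crossed block and DESeq2, and 1 to 12 without a library. For the related families they were 2, 1, 3 and 8 with library totals, no filter, the length trend removed and the crossed block, and 0 to 11 without a library. Signs turned when 1 library was left out for 4 genes that were not called: Setdb1 (−0.045 without wild-type replicate 1, up to 0.46), Zfp131 (−0.068 without mutant replicate 1, −0.010 without wild-type replicate 2, up to 0.16), Zfp366 (−0.12 without mutant replicate 1, −0.23 without wild-type replicate 1, up to 0.62) and Zfp592 (−0.042 without mutant replicate 1, up to 0.29). Distances of 250 kb and 1000 kb gave 17 and 14 clusters. Depth limits the members of few counts, as in Zfp933, whose log2 fold change of 0.10 has an SE of 0.62.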

Other observations

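Genes next to the chromosome 4 cluster were looked at after the values of the cluster were seen. Within 1 Mb of it, 29 genes were tested, of which 4 rose and 3 fell (24.1%, beside 7.37% of all genes). All 7 lay on the distal side, among 25 genes tested there. Nppa, which encodes atrial natriuretic peptide, rose by 1.07 on the log2 scale (edgeR FDR 0.0447), and Clcn6, a chloride transporter gene, by 1.28 (FDR 0.0206). Masp2, a serine protease of the lectin complement pathway, had 78 and 62 counts in the mutant libraries, against 3 and 4 in wild type (log2 fold change 4.28, edgeR FDR 0.00769). Mfn2, which fuses mitochondrial outer membranes, fell by 1.22 (edgeR FDR 0.0206), Fbxo44 by 1.96 (FDR 0.00954) and the gene model Gm572 by 2.41 (FDR 0.0270). Fv1, a retrovirus restriction gene whose alleles differ between mouse strains, had no count in the mutant libraries and 6 and 3 in wild type, and was not tested.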
